A study of Homo sapiens with 2 samples.

Results

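ENAH, NFYA and HBB are human genes on chromosome arms that carried more than 1 TRF2 peak each. They are described here with OARD1, which overlaps NFYA, and with the pseudogenes ENAHP1 and NFYAP1. The loci were chosen by the number and strength of their peak summits in these data, and a summit was counted where it lay inside 1 of these 6 annotated genes or within 3 kb. That gave 16 distinct summits of the 24258 in the authors' list, at 5 of the 6 genes, where 3.09% of all 58957 annotated genes had one. Because of that choice, the number and the strength of the summits are descriptions and were not tested.

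Sequencing of chromatin immunoprecipitated with TRF2, the product of TERF2, was done in HCT116, an established line of human colon cancer cells. The cells were fixed with 1% formaldehyde 72 h after plating, their chromatin was sheared to around 300 to 400 bp, and 100 μg of it was used with 5 μg of antibody to TRF2. There was 1 immunoprecipitated library and 1 input library from the same line, with no replicate, so no difference between samples could be tested. The labels name no transfection, genotype change or drug, although the name of the peak list mentions a control siRNA. A peak list holds no expression, so the identity of the line could not be checked against marker genes.

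TRF2 is a subunit of shelterin, the complex that covers telomeres, and it binds the double-stranded form of the telomere repeat, TTAGGG. ENAH encodes Mena, a protein of the Ena/VASP family that promotes the growth of actin filaments at the edge of moving cells. NFYA encodes the sequence-reading subunit of NF-Y, a trimer that binds CCAAT boxes in promoters. OARD1 encodes an enzyme that removes ADP-ribose from proteins. HBB encodes the beta chain of adult hemoglobin, a protein of red blood cells and not of colon epithelium. Parts of HBB, its second intron and its terminal sequence among them, have long been used as building blocks of expression plasmids. A processed pseudogene is a copy of a spliced transcript put back into the genome, so that it carries exon sequence without introns.

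The question was whether the summits at these loci look like exons of a transcript or like the human part of a plasmid, as against binding along the chromosome. The measures that bear on it were the position of each summit, the width of its peak, and the read depth and input background there. The state of the pseudogenes and of other genes that lend parts to plasmids was another. Exon positions and the genome sequence under the peaks at the member loci were not used here, so whether a summit lay in an exon was not tested.

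The upstream sequences that the results refer to are those of NFYA, whose promoter had no peak, and of PARP2, where a peak covered the stretch between RPPH1 and PARP2. They were taken from RefSeq (GRCh38.p14), 5′ to 3′ on the plus strand, and are the 250 bases that end just before the annotated start of each gene. They are shown because the first is a promoter without a summit inside a gene that has summits, and the second is the promoter stretch of the other gene found among the donors of plasmid parts. Capitals mark bases under the TRF2 peak.
NFYA, chr6:41072724-41072973: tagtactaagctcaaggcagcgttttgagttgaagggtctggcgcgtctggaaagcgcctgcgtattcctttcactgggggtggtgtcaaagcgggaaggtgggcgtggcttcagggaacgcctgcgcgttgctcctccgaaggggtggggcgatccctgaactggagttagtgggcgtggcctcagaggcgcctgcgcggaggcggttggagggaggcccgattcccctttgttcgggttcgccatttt
PARP2, chr14:20343385-20343634: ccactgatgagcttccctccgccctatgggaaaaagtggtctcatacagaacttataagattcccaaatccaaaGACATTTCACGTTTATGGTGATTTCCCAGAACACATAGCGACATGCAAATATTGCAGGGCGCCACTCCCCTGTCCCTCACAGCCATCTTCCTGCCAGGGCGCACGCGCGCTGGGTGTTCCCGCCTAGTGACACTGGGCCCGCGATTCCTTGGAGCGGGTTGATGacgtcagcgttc

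ENAH (chromosome 1, 225486829 to 225653878 on hg38, 167 kb) carried 9 summits, all inside the gene. From low to high coordinate they lay at 225501023, 225507995, 225512700, 225512945, 225514660, 225514830, 225519481, 225554951 and 225567360. The read pileup at these summits was 14, 12, 9, 13, 13, 8, 21, 16 and 14. It is the peak caller's count of immunoprecipitated reads over the summit base. The summit at 225519481 was the deepest and the widest of the 9, and the one at 225514830 was the shallowest. The exact Poisson 95% interval of the deepest ran from 13.0 to 32.1 reads and that of the shallowest from 3.45 to 15.8. These were picked as the extremes of the 9, so their difference was not tested.

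Fold over the input, the authors' value at each summit, was 5.57, 6.34, 4.88, 6.83, 6.58, 4.39, 6.76, 5.22 and 7.32 in the same order. The strength measure used throughout is the authors' −log10 q, with 5 or more called strong, and 7 of the 9 ENAH summits were strong. The exceptions were the summits at 225512700 (−log10 q 3.20) and 225514830 (2.33), each of which lay beside a strong one. Just inside the threshold were 225501023 (5.58) and 225554951 (5.66).

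The widths of the ENAH peaks were 76, 72, 69, 116, 76, 69, 324, 163 and 186 bp in the order of the summits, with a median of 76 bp, beside 73 bp over the other arm peaks of the list. The smallest, 69 bp, is the narrowest that the authors' list holds. It is also the lower quartile of the other arm peaks, so widths near it say little about the shape of a peak. Together the 9 peaks covered 1151 bp, or 0.689% of the gene.

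The summits were gathered in one part of the gene. ENAH is read from high to low coordinate, and its promoter window in the RefSeq table ends at a start site at 225653123. The summits lay 85.8 to 152 kb downstream of that start, and the first 85.8 kb of the transcribed stretch held none. Of the 9, 7 fell within 18.5 kb near the end of the gene, between 225501023 and 225519481. Among them were close pairs of summits, 245 bp apart at 225512700 and 225512945, and 170 bp apart at 225514660 and 225514830. The widest gap between neighbouring summits was 35.5 kb, before 225554951.

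The summits stopped short of both ends of the gene. The closest summit beyond the 3 kb flank on the low side was 104 kb away from ENAH and weak (fold 4.39, 8 reads, −log10 q 2.33), and on the high side it was 1600 kb away. The neighbouring genes LBR, LINC02765, LOC124904526, LOC102723834, LOC107985352 and RNU6-1304P had no summit.

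The pseudogene ENAHP1 (chromosome 3, 190830965 to 190832370, 1406 bp) carried 2 summits of its own. They lay at 190831931 and 190832103, at bases 967 and 1139 of the pseudogene counted from its low coordinate. Their pileups were 14 and 9 reads, their folds 3.93 and 4.88, and their widths 121 and 72 bp. Neither was strong, with −log10 q values of 2.98 and 3.20, below the threshold of 5 and close to those of the weaker ENAH summits. The ENAHP1 summits were 172 bp apart, beside the spacings of 170 and 245 bp in the ENAH pairs. Whether they lie over the same exon sequence as an ENAH pair was not tested, and neither was whether a read counted at one copy would align equally well to the other. Apart from these, no summit lay within 185 kb of ENAHP1. Its neighbour GMNC and the other 5 nearest genes had none.

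**Figure D1:**
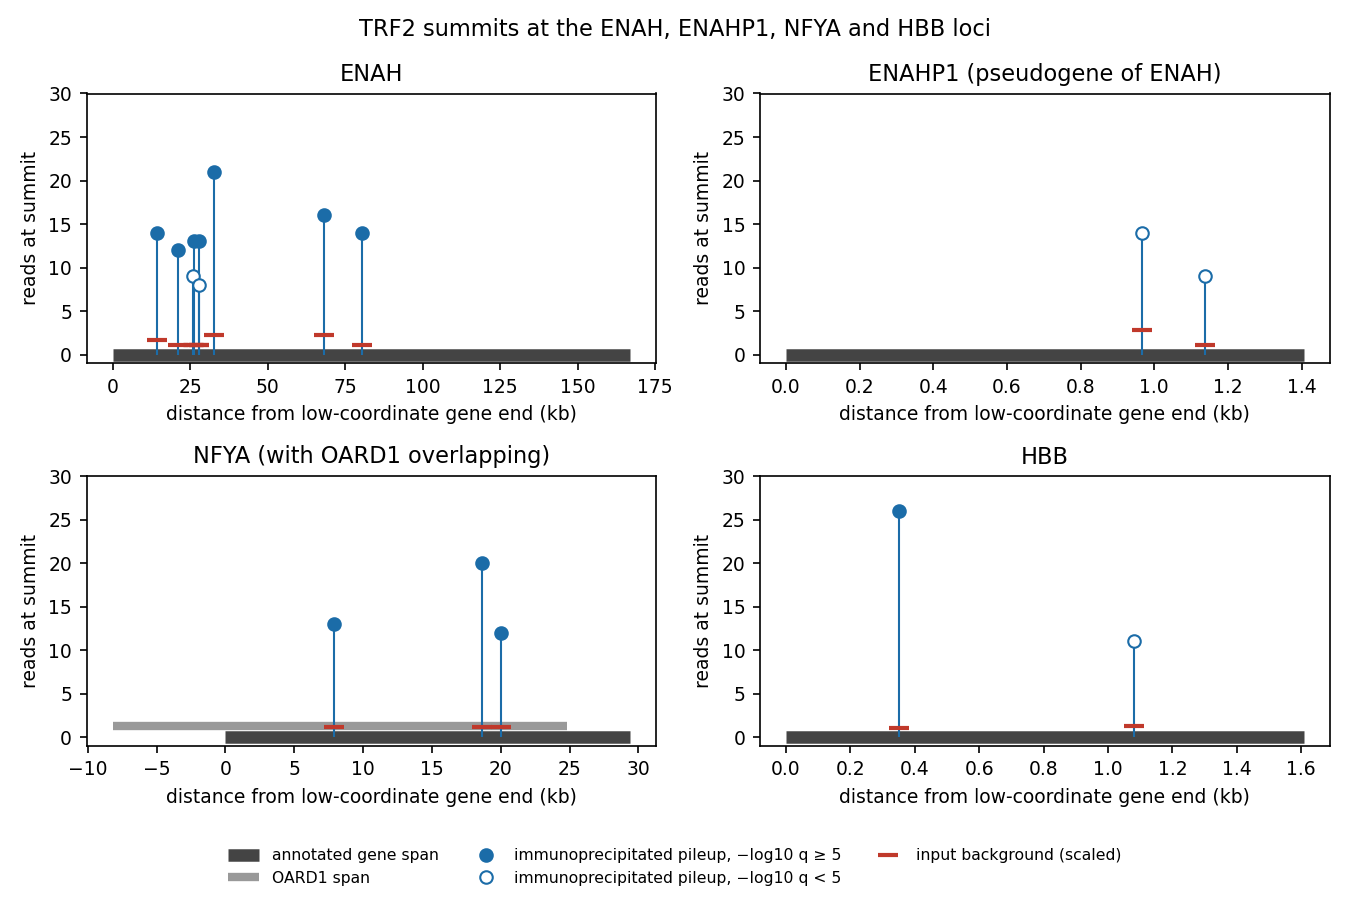
Read pileup at each TRF2 summit (vertical axis, reads) against distance from the low-coordinate end of the gene (horizontal axis, kb) for ENAH, ENAHP1, NFYA with OARD1, and HBB, with filled circles for summits of −log10 q of 5 or more, open circles for weaker ones, red dashes for the scaled input background and bars for annotated gene spans. ENAH summits of 8 to 21 reads lie in the low-coordinate part of the gene, and the HBB summit of 26 reads is the deepest of the 16.

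NFYA (chromosome 6, 41072974 to 41102403, 29.4 kb) carried 3 summits, at 41080860, 41091595 and 41092963, and all 3 were strong. Their pileups were 13, 20 and 12 reads, their folds 6.58, 9.87 and 6.11, and their −log10 q values 6.77, 14.8 and 5.76. The middle summit was the highest in each of these values. Its exact Poisson interval was 12.2 to 30.9 reads, and that of the summit at 41092963 was 6.20 to 21.0 reads. The peaks were 80, 96 and 74 bp wide and covered 250 bp, or 0.849% of the gene.

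None of the NFYA summits was at the promoter. NFYA is read from low to high coordinate, and the summits lay 7.89, 18.6 and 20.0 kb downstream of its start. The 250 bases before the start, printed above, contain neither the telomere repeat unit TTAGGG nor CCAAT, the box that NF-Y reads, on either strand. For comparison, 7.94% of 35116 annotated promoter windows of that length hold TTAGGG or its reverse complement CCCTAA, and 32.0% hold CCAAT or its reverse complement ATTGG. These matches describe the letters of a window and not binding.

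OARD1 (chromosome 6, 41064772 to 41097787) has the same 3 summits, because its annotated span overlaps most of NFYA. They are counted once here, and the peak list has no strand that would assign them to either gene. The RefSeq table gives 4 promoter windows for OARD1. The closest of their start sites to a summit was at 41097787, 4.82 kb from the summit at 41092963, and none of the windows was touched by a peak. Across ENAH, NFYA and OARD1, the members with an entry in that table, 0 of 6 promoter windows overlapped a peak. The share of all promoter windows that overlap a peak was not computed, so nothing is read from this count.

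Outside NFYA the list was again empty. The next summit was 44.6 kb beyond the high end of the gene and among the weakest of the list (fold 2.93, 5 reads, −log10 q 0.230), 2.28 kb outside TREML1. On the low side it was 2128 kb away. The pseudogene NFYAP1 (chromosome 13, 63975780 to 63976423, 644 bp) had no summit, and its closest was 912 kb away with a fold of 3.41 and 6 reads. NFYA and ENAH thus differed in what was listed at their named pseudogenes, with 0 summits at the first and 2 at the second, and this difference was not tested.

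HBB (chromosome 11, 5225464 to 5227071, 1608 bp) carried 2 peaks of unlike shape. The first ran from 5224926 to 5226108, a width of 1183 bp, with its summit at 5225813, 26 reads, a fold of 13.2 and a −log10 q of 23.3. The second ran over 81 bp from 5226514 to 5226594, with its summit at 5226544, 11 reads, a fold of 5.34 and a −log10 q of 4.35, the member value nearest below the strong class. A stretch of 405 bp without a peak separated them, and the summits were 731 bp apart. The exact Poisson intervals of the summits were 17.0 to 38.1 and 5.49 to 19.7 reads.

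The wide HBB peak crossed one border of the gene. HBB is read from high to low coordinate, so that border is the end of its transcript. Of the 1183 bp, 645 bp lay in the gene and 538 bp beyond its transcript end. Of the 16 peaks, this one alone ran past the border of its gene. Which intron or exon the peak covered was not tested.

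The rest of the beta-globin cluster had no summit. HBD, the delta-globin gene next to HBB and close to it in sequence, began 6.29 kb beyond the second HBB summit. HBBP1, HBG1, HBG2 and HBE1 followed without a summit, and so did HBZ, HBM, HBA2, HBA1 and HBQ1 of the alpha cluster. HBB was thus the 1 globin gene of 11 with a summit, and it was chosen for its summits. Outside HBB this is 0 of 10 genes, beside 3.09% of all genes, a count too small to compare. The closest summits outside HBB were 209 kb away on the high side (fold 4.88, 9 reads) and 686 kb away on the low side.

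The input background at each of these summits was recovered from the deposited fold and p. This is the background against which the peak caller set each summit, scaled to the immunoprecipitated library. It had a genome-wide floor of 1.05, and 7 of the 16 member summits (43.8%) lay at it. The same held for 76.4% of the other arm summits and 28.4% of the strong ones among these. At such summits the local input is known only to be no higher than the floor. At ENAH the 9 background values were 1.69, 1.05, 1.05, 1.05, 1.13, 1.05, 2.26, 2.26 and 1.05. The highest of these correspond to 4 input fragments over the summit, where the mean of the genome is 1.86. An input fragment is counted here as 69 bp long, which is shorter than the sheared chromatin. At NFYA the backgrounds were 1.13 at each of the 3 summits, which is 2 input fragments over the summit at 41091595 and 41092963 and 29 input fragments in the surrounding 1 kb at 41080860, against a genome mean of 27.0 per kb. At HBB the wide peak lay at the floor and the narrow one had 32 input fragments in 1 kb. The highest background of any member was 2.82, or 5 input fragments, at the ENAHP1 summit 190831931. Counts were small in both libraries, and no member summit had fewer than 8 immunoprecipitated reads.

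The members were then set beside all genes of the annotation. A summit in the gene or within 3 kb was listed for 5 of the 6 members, against 3.09% of all genes, 4.74% of protein-coding genes and 1.49% of pseudogenes. Because the rule chose the members by those summits, nothing is read from the contrast. One or more strong arm summits were listed for 102 protein-coding genes (0.514% of 19862), ENAH, NFYA, OARD1 and HBB among them, and 2 or more for 8 (0.0403%). At least 3 strong arm summits were listed for 6 protein-coding genes, 0.0302%, and ENAH, NFYA and OARD1 are 3 of those 6. NFYA and OARD1 enter these gene counts separately, by the same 3 summits. Chromosome arms here leave out the centromere bands, 2 Mb around them and the heterochromatin and stalk bands, and all 16 member summits lay on arms. Chromosome ends were not left out, so the arm comparison sets include any summits close to telomeres.

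By the number of strong arm summits, the genes outside the members that were most like them were TERF2 with 9, TERF1 with 7, DUX4 with 4, LRRC4C and FAM120B with 2 each, and RANBP2 with 1. ENAH had 7, the same number as TERF1 and fewer than TERF2. RANBP2 was taken from many genes with 1 by its summed pileup. TERF1 and TERF2 encode TRF1 and TRF2, the shelterin proteins that bind the double-stranded form of the telomere repeat. The strong summits of TERF2 had folds of 5.50 to 12.2, those of TERF1 6.34 to 20.1 and those of ENAH 5.22 to 7.32, all over low input (median backgrounds 2.01, 1.05 and 1.13). DUX4 differed in this respect, with folds of 1.84 to 2.76 over a median background of 51.1. The density of strong summits per 100 kb of gene and flank was 24.7 at TERF2, 22.1 at DUX4, 15.5 at TERF1, 13.1 at HBB, 8.47 at NFYA, 7.69 at OARD1 and 4.05 at ENAH. It was 1.63 at FAM120B, 0.148 at LRRC4C, a gene of 1345 kb, and 0.0886 at RANBP2. The value at HBB rests on 1 strong summit in a short gene, and those at NFYA and OARD1 rest on the same summits. Likeness here is the number of summits alone.

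**Figure D2:**
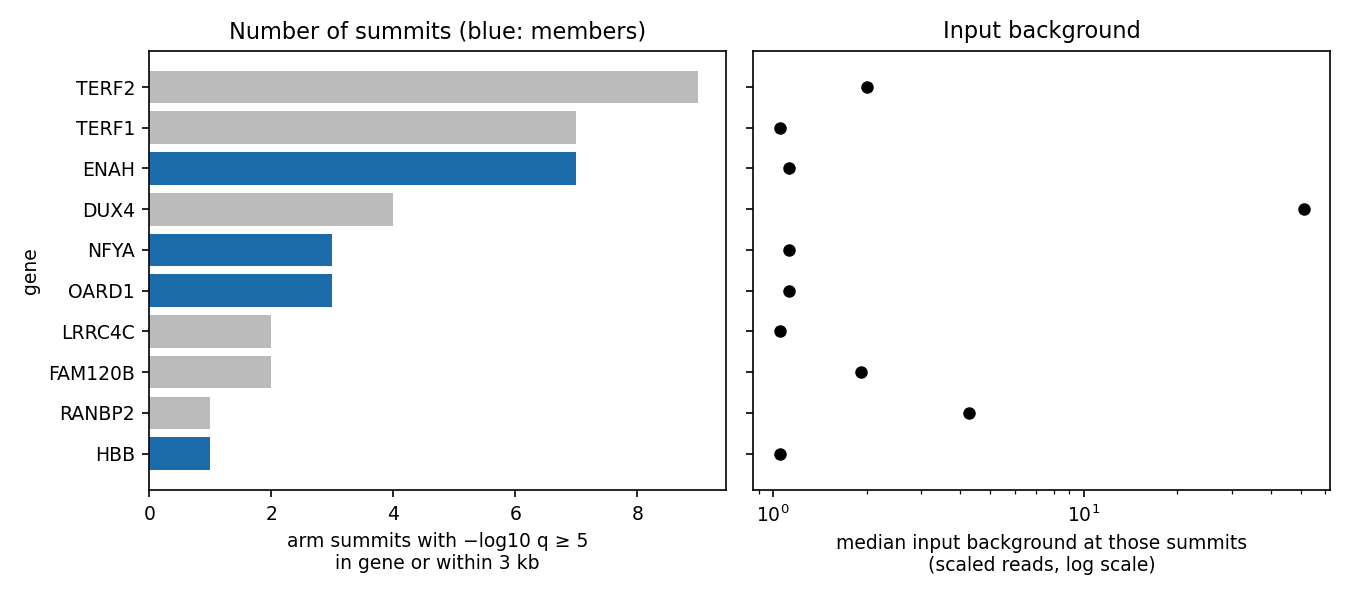
Strong TRF2 summits (−log10 q of 5 or more, on chromosome arms) in each gene or within 3 kb (left, bars from 0, members in blue) and the median input background at those summits (right, log scale, scaled reads) for the member genes with a strong summit and the 6 genes most like them by number. ENAH stands at 7 with a median background of 1.13, and DUX4 at 4 with 51.1. The bars of NFYA and OARD1 show the same summits.

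In width, the first HBB peak stood apart from the other members. The median width was 76 bp at ENAH and 80 bp at NFYA, beside 104.5 bp at TERF1, 130 bp at TERF2 and 73 bp over the 3345 other arm peaks. A nearer comparison for the strong summits is the 187 other strong arm peaks whose input background was no higher than 2.82, the highest at a member. These had a median width of 85 bp, quartiles of 76 and 101 bp, and a median pileup of 16 reads. The 3 NFYA peaks, at 74 to 96 bp, were no wider than that upper quartile. Of the 7 strong ENAH peaks, 4 were wider than it, at 116, 163, 186 and 324 bp. The HBB peak was the widest of all 3157 arm peaks with an input background that low, ahead of one of 1143 bp at FAM120B (fold 6.17, 15 reads). It ranked 9 by width among all 3378 arm peaks, and the 8 wider ones all had a background of 13.0 or more. By fold it ranked 25 of the 3378.

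**Figure D3:**
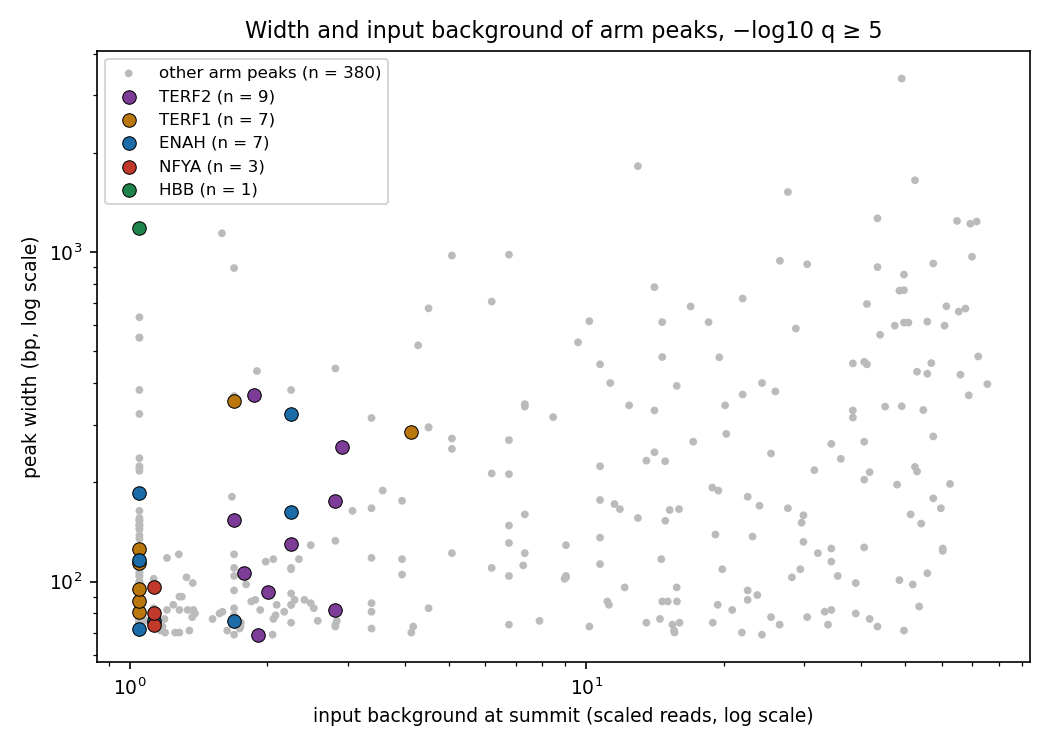
Peak width (vertical axis, bp, log scale) against the input background at the summit (horizontal axis, scaled reads, log scale) for the 407 arm peaks of −log10 q of 5 or more, with ENAH, NFYA, HBB, TERF1 and TERF2 in colour. The HBB peak of 1183 bp stands at the top of the lowest background of 1.05, and the ENAH and NFYA peaks of 72 to 324 bp lie among the others.

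Close spacing was seen at ENAH and its pseudogene, in pairs nearer than the around 300 to 400 bp to which chromatin was sheared. Whether such a pair is 1 site or 2 was not tested. A neighbouring summit lay within 300 bp for 4 of 9 summits at ENAH and for both at ENAHP1, and for none of those at NFYA or HBB. The same held for 72 of 3345 other arm summits (2.15%), for 49 of the 380 strong ones among them (12.9%), for 3 of the 187 strong ones with a low input (1.60%), and for none of the 8 at TERF1 or the 9 at TERF2. In each ENAH pair 1 summit was weak, as were both at ENAHP1, so the shares of strong summits are at another threshold. Summits of one gene may not be independent of each other, and several summits per gene are what the loci were chosen for, so these shares were not tested.

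Pairs of a gene and its pseudogene with summits at both were counted next. Of 8161 pseudogenes named after a protein-coding gene, 64 (0.784%) had an arm summit, and in 6 pairs the gene had one as well. These were ENAH with ENAHP1, TERF1 with TERF1P3 and TERF1P4, KMT2C with KMT2CP4, RBPJ with RBPJP5, and CNTNAP3 with CNTNAP3P2, of which TERF1P3 and the last 3 pairs were named after their values were seen. The pair of TERF1 with TERF1P4 was the only one of these 6 with a strong summit at both. ENAH and TERF1 were the genes among them with 7 strong summits each. In 30 pairs the gene had a strong arm summit, and in 4 of those the pseudogene had an arm summit of any strength. The share of all pairs whose gene had an arm summit was not computed, so nothing is read from the count of 6.

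Summits at the partners of the members in the cell were counted in the same way. Of 8 genes of NF-Y and its histone-fold relatives, NFYA had a summit, and NFYB and NFYC, the other NF-Y subunits, had none within 2925 kb and 141 kb. Of 12 genes of the Ena/VASP family and its partners, ENAH and LPP had one. LPP, a zyxin-like protein of cell adhesions, had 1 weak summit at 188368664 on chromosome 3 (fold 4.88, 9 reads, −log10 q 3.20). VASP and EVL, the other family members, had none, nor had APBB1IP, RAPH1, ZYX, TES, VCL, PFN1, PFN2 or ABI1. The median number of summits was 0 in each of these lists and 0 over all genes. With 1 of the 18 genes of these lists outside the members called, beside 4.74% of protein-coding genes, nothing particular to them was seen.

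Human genes that lend a promoter, intron, terminator or coding part to plasmids were listed for the second reading of the question. Of 10 such genes, HBB and RPPH1 had a summit, and HBB was on the list because it is a member. RPPH1 (chromosome 14, 20343071 to 20343411) encodes the RNA of ribonuclease P, and its promoter, known as H1, drives short hairpin RNAs in many vectors. The peak there ran from 20343459 to 20343622, 164 bp, with its summit at 20343505, 94 bp outside RPPH1 and 130 bp before the start of PARP2, which is read in the opposite direction. It was strong, with 20 reads, a fold of 5.15 and a −log10 q of 6.84 over a background of 3.07. All 164 bp lay within the PARP2 upstream sequence printed above, between the 2 genes. EEF1A1, PGK1, ACTB, RNU6-1, RN7SK, GH1, FTH1 and IGHG1 had no summit within 3 kb. Outside HBB this is 1 of 9 genes, beside 3.09% of all genes, a count too small to compare. Whether the reads at HBB or RPPH1 came from the chromosome or from other DNA was not tested.

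Few of the nearest genes of the members had a summit. Of 30 neighbours, 3 on each side of each member, TREML1 alone had one, beside 3.09% of all genes. It was the weak summit described beside NFYA, which lay outside TREML1. Nothing particular to the neighbours was seen. At all 4 loci the summits lay within the annotated gene, 16 of 16, with the wide HBB peak reaching past the border by 538 bp. Summits were counted only in the members and within 3 kb of them, and the loci were chosen for these summits. Nothing is therefore read from that count.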

How the data were processed

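The data were the peak list that the authors deposited for 1 TRF2 immunoprecipitation over 1 input of HCT116 cells. Per the submitters' processing notes the builds were GRCh38 and hg38, and the tools included MACS2 2.1.0, Bowtie2 2.3.2, ChIPseeker 1.36.0 and HOMER. Settings and the handling of multiply aligned reads were not given in the sources used here. Fold enrichment as deposited by the authors is a ratio of pileup to local input background at the summit. The deposited −log10 p and −log10 q are the peak caller's, and the deposited score is 10 times the −log10 p cut to a whole number. No −log10 p was below 3.01.

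The summit is the peak start plus the summit offset, in 1-based coordinates. Pileup and background were recovered from fold and p by the forms MACS2 uses (fold is pileup plus 1 over background plus 1, p the Poisson tail above the pileup). In 100% of peaks a whole-number pileup matched both within 0.001, with a largest residual of 0.00014, and the recovery was tested on simulated data. Steps of the background gave 0.564 immunoprecipitated fragments per input fragment, and the smallest peak width, 69 bp, was taken as the fragment length when input fragments were counted. That length is shorter than the around 300 to 400 bp of the sheared chromatin, so the counts are not of whole sheared fragments. Library totals were not used. Pileups ran from 5 to 138 reads, and intervals cover counting error only.

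Gene spans came from RefSeq (GRCh38.p14), without 718 rows on other sequences, and bands from circlize 0.4.16 (R 4.3.3). Scripts ran in Python 3.11.15 with pandas 2.3.3, scipy 1.17.1, numpy 2.4.6 and matplotlib 3.10.9. The planned count of summits in exons was replaced by position along the gene, since no exons were used here. Named genes were all members, list genes with a summit, the 6 protein-coding genes outside the members with most strong arm summits, and gene and pseudogene pairs with strong summits at both; list genes and neighbours without a summit are named to account for each list. The plasmid list was planned with 1 more gene, which is not reported or counted here. The members, lists and rules were chosen with earlier results of these data known. Alternatives were other flanks, a −log10 q of 5 or more, a fold of 5 or more, placement by overlap, and other comparison sets.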

Additional observations from a re-analysis of the deposited data

How the results depend on the processing

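Summit counts at ENAH, NFYA, OARD1 and NFYAP1 stayed within 1.5 times under no flank, a 10 kb flank, placement by any overlap, −log10 q of 5 or more, or fold of 5 or more; ENAH had 7 under each of the last 2. Under −log10 q of 5 or more, HBB kept 1 summit and ENAHP1 0, and ENAHP1 also had 0 at a fold of 5 or more. With −log10 q of 5 or more, the median width became 116 bp at ENAH and 1183 bp at HBB, and the median pileup 14 reads at ENAH and 26 at HBB (from 76 and 632 bp, and 13 and 18.5 reads), since fewer summits entered. The other arm peaks had a median width of 73 bp, pileup of 7 and background of 1.05. The strong ones had 103.5 bp, 33 reads and 3.38, and the strong ones with input as low as at the members, a set chosen after seeing the data, had 85 bp and 16 reads. The list of Ena/VASP genes fell to 1 gene with a summit under −log10 q of 5 or more, the globin list rose to 2 with a 10 kb flank (HBD, by the HBB summit), and the plasmid list fell to 1 with no flank. The exon overlap alternative was not run. No paired analysis was possible because each group had 1 library. Peaks of 5 to 9 reads are near the limit of the list, so weaker signal at the pseudogenes and partners was not detectable at this depth.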
